A study of Mus musculus with 42 samples.

Results

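Ribosome footprint libraries from wild-type (WT) mouse brain were set against input RNA libraries made from the same lysates. The comparison used 3 footprint and 3 input libraries, which are 6 of the 42 samples of the series. Its members were the 13279 protein-coding genes, of 22008 in the table, with a rescaled value of at least 10 in at least 3 of those 6 libraries. The rescaled value is the authors' deposited value after the protein-coding rows of each library were brought to one common total, so it is a share of the protein-coding signal and not an amount of RNA per cell. The study concerns PCIF1, the enzyme that methylates the adenosine next to the mRNA cap to make m6Am. The WT libraries came from whole brains of 3 adult mice, and nothing in the labels pairs an input with a footprint library, so the tests treat the 6 as independent. Adult Pcif1 knockout (KO) mice, used only at the end, belonged to 1 line with a short Cas9-made deletion that takes out the catalytic residues and leaves a premature stop, derived from B6D2F1/J embryos and crossed to C57BL/6J, and gave 3 libraries of each kind. All lysis buffers held cycloheximide, which stalls elongating cytosolic ribosomes.

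A ribosome that is stalled on an mRNA shields a short stretch of it from nuclease, and sequencing the shielded fragments shows where and how often ribosomes sat. The input library counts the RNA itself, so footprint over input ranks mRNAs by footprint signal for their RNA signal, on a relative scale. Input reads come from the whole mRNA and footprints mainly from its coding part, and these lengths were not available. The ratio is therefore not a number of ribosomes per molecule. In brain, mRNAs for synaptic proteins, receptors and cytoskeleton are spread over cell bodies and long processes, and glia and neurons contribute to one lysate. Differences are given below as log2 footprint minus log2 input after 1 was added to each value, with the standard error (SE), and calls are limma tests with Benjamini-Hochberg adjusted p under 0.05 over all 13279 genes. Fold differences of genes with low values are understated on this scale. P-values measure the spread between the 3 libraries of each kind, taken as 3 mice.

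The libraries differed in make-up before any gene was compared. Estimated reads on protein-coding genes, from the value that 1 read was worth, ran from 6229540 to 7179867 in the inputs and from 3340825 to 3945253 in the footprints. Ribosomal RNA, with AY036118, an rRNA-locus transcript filed as lincRNA, took 72.6% to 75.7% of the footprint signal and 7.07% to 7.73% of the input signal. Mitochondrial tRNA took 20.4% to 24.3% of the input signal and 0.0224% to 0.0661% of the footprint signal. For snRNA the shares were 10.2% to 11.3% and 0.232% to 0.288%. AY036118 alone was 25.8% and 13.9% of the signal in footprint libraries 1 and 3 but was listed at 0 in footprint library 2, as it was in the 3 KO footprint libraries. Across genes, log2 values of input libraries correlated at 0.962 to 0.964, and those of footprint libraries 1 and 3 at 0.939. Footprint library 2 stood apart, with correlations of 0.906 and 0.912 with the others. It lay more than 1 log2 unit from the mean of the other 2 in 975 of 8068 genes with a mean of at least 100. For footprint libraries 1 and 3 this held in 489 and 379 genes. Named results that lose or gain a call without any 1 library are given with the adjusted p without that library. Called named results that move by over 1.5-fold are given with the value without it. Over the 13865 genes tested in 12 libraries, footprint library 2 correlated at 0.930 to 0.931 with the 3 KO footprints and at 0.910 and 0.916 with the other WT footprints, while libraries 1 and 3 correlated at 0.939 with each other, at 0.908 to 0.915 (library 1) and at 0.920 to 0.927 (library 3) with the KO footprints. Footprint library 2 thus lay nearer to the KO footprints than to those of its own group, and what sets it apart was not tested.

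Higher footprint than input values were called for 2395 genes, 18% of those tested, and lower values for 4077 genes, 30.7%, which makes 48.7% called in either direction. The median difference was −0.27, with quartiles of −1.04 and 0.46. Differences beyond 1 log2 unit were called for 1473 genes upward (11.1%) and 3034 downward (22.8%). The 3 footprint values all lay above the 3 input values in 22.7% of genes and all below in 37.1%. The split depended on the scaling: 37.0% of calls were higher and 63.0% lower, but 51.5% were higher with the deposited scaling and 48.6% with median-of-ratios scaling. Those scalings raised every median by 0.26 and 0.21, so the gene groups below are read against −0.27 rather than against 0. Abundant genes leaned upward: among 905 genes with a mean over 1000, 44.4% were higher and 24.0% lower, while among 5211 genes with a mean under 100, 10.4% were higher and 26.6% lower. Without footprint library 2 the counts rose to 2766 and 4808.

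**Figure D1:**
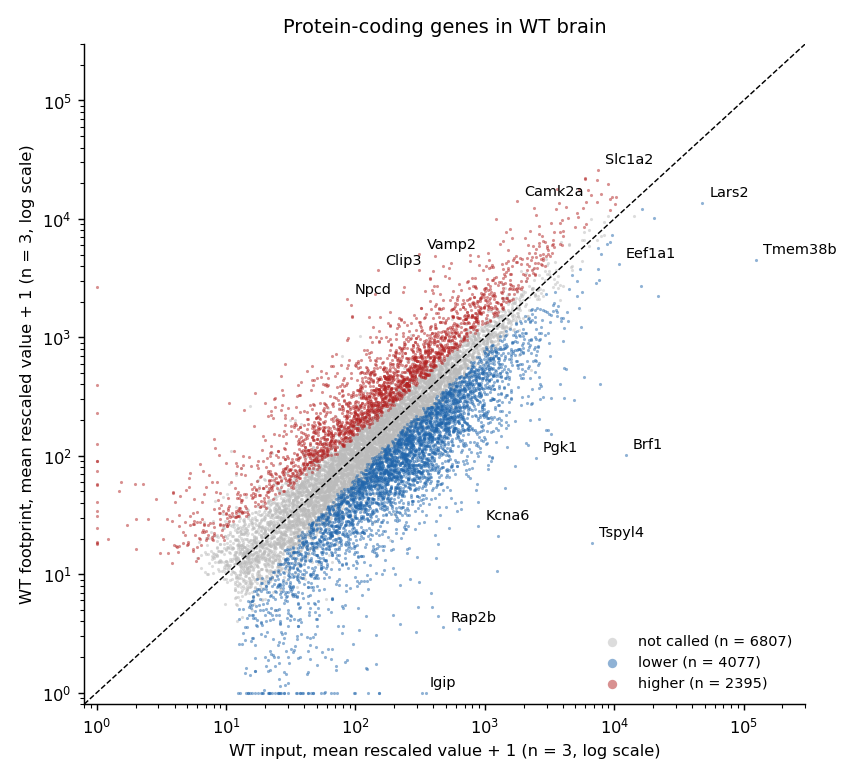
Each point is 1 of the 13279 genes tested, with the mean rescaled value of the 3 inputs on the horizontal axis and of the 3 footprints on the vertical axis, both plus 1 on log scales. The dashed line marks equal values. The 2395 genes called higher lie above it and the 4077 called lower below it, with Tspyl4, Brf1 and Tmem38b far below and Clip3, Vamp2 and Npcd far above.

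The genes with the highest footprint-to-input ratios included trafficking and synaptic proteins. The rule that named the highest and lowest genes kept only called genes without overlap, so separate groups were fixed by it. Over all genes tested, the footprints lay above the inputs without overlap in 22.7% and below in 37.1%. Clip3, a CAP-Gly protein of microtubules and the trans-Golgi network, had values of 161, 139 and 146 in the inputs and 4201, 2988 and 3813 in the footprints. That is 24.4-fold, or 4.61 ± 0.16 (log2, SE, adjusted p = 1.1e-05). All 3 footprints of Clip3 stood far above all 3 inputs. Vamp2, the synaptobrevin of synaptic vesicles, rose from 330.5, 302 and 300.4 to 5726, 4279 and 5131, a difference of 4.01 ± 0.14 (adjusted p = 1.1e-05). For Prrt1, an AMPA receptor-associated membrane protein, inputs were 29.4, 25.9 and 27.3 and footprints 636, 546 and 593, 4.38 ± 0.17 (adjusted p = 1.3e-05). In neither gene did the groups come near each other. The other genes of the upper 12 were Npcd (4.66), Phyhipl (4.37), Myadm (4.25), Prr36 (4.18, 4.99 without input 3), Cisd3 (4.16), Wbp2 (4.05), the glutathione transferase Gstm1 (4.04), the calmodulin regulator Pcp4 (3.92) and the neuronal peptidase Ecel1 (3.90, 4.49 without footprint 2). The Myadm row is a copy on an assembly patch. The row on chromosome 7 had 64.1, 24.4 and 27.7 in the inputs and 161, 32.1 and 117 in the footprints and was not called (1.94 with adjusted p = 0.011 without footprint 2), so how reads were divided between the copies makes both uncertain.

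At the other end stood mRNAs with many input reads and almost no footprints. Tspyl4, of the TSPY-like nucleosome assembly family, had 7287, 6253 and 6738 in the inputs and 12.8, 27.7 and 11.9 in the footprints, 392-fold lower (−8.61 ± 0.30, adjusted p = 1.1e-05). Rap2b, a small GTPase, had inputs of 478, 463 and 493 and footprints of 2.71, 0 and 5.05 (−7.41 ± 0.62, −6.66 without footprint 2, adjusted p = 1.5e-04). Both genes were near the bottom of the range in every footprint library while their input values were even. Igip was listed at 0 in all 3 footprints against 329.5, 359 and 296 in the inputs. A second row named Zc3h11a was likewise at 0, against 389, 292 and 360.3, while the main row of this RNA-binding export factor had 448, 489.6 and 417 in the inputs and 123, 177 and 144 in the footprints. These rows share a symbol and a chromosome, and reads could be divided between them. Others of the lowest 12 were Rtl8a (−7.35, −8.58 without footprint 1 and −6.71 without footprint 2 and −6.71 without footprint 3), Ccdc36 (−6.96), Brf1 (−6.87), E2f8 (−6.43), Hist2h2aa1 (−6.35, call lost without footprint 1, footprint 2, input 1, input 2 or input 3, adjusted p = 0.084 to 0.10), Vmn2r53 (−6.30, −5.33 without footprint 2) and Rps27rt (−6.22, −5.44 without footprint 3). For Hist2h2aa1 the value was −4.98 without footprint 1, −4.99 without footprint 2 and −9.04 without footprint 3. Hist2h2aa1 has a near-identical neighbour, and its footprints were 0, 0 and 278. Of these 12, 6 (Zc3h11a, Igip, Rap2b, E2f8, Vmn2r53 and Rps27rt) had every footprint under 10 and passed the filter through the inputs alone, as did 310 of all genes tested, while 110 passed through the footprints alone. Such genes had to differ in that direction. Over all genes tested, 49 were listed at 0 in the 3 footprints and 16 in the 3 inputs. The largest of the latter, the predicted gene Gm20721, chosen here after its values were seen, was at 0 in the inputs and at 1316, 4587 and 2059 in the footprints.

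**Figure D2:**
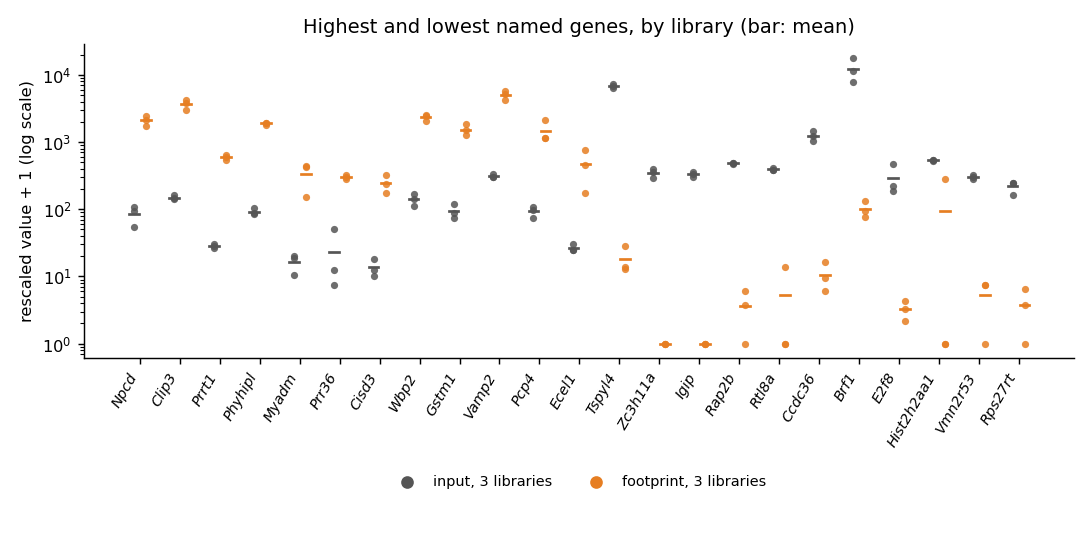
Rescaled values plus 1 on a log axis for the 12 highest genes named by rule and 11 of the 12 lowest, with 1 dot per library, inputs in grey and footprints in orange, and a bar at each group's mean. The rule asked for groups without overlap, so that the groups are apart in all 23 follows from the choice. Hist2h2aa1 has 2 footprint libraries at 0 and 1 at 278, and Zc3h11a and Igip have all 3 at 0.

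Some rows took a large part of the input and little of the footprint. Tmem38b, an intracellular cation channel subunit, was the highest protein-coding row in the input, with 116832, 136665 and 121924, which is 2.64% of the protein-coding signal, and its footprints were 2439, 7418 and 3755 (−4.94 ± 0.36, adjusted p = 9.0e-05). In RefSeq an rRNA gene overlaps Tmem38b, and the part of those reads in the value was not tested. Lars2, a mitochondrial leucyl-tRNA synthetase, followed with 51739, 44492 and 47722, against 5697, 25829 and 9665 in the footprints (−2.09 ± 0.48, −2.69 without footprint 2), and footprint library 2 stood far above the other two. Brf1, a subunit of the RNA polymerase III factor TFIIIB, whose locus overlaps Btbd6, had 7696, 11437 and 17611 in the inputs and 132, 76.5 and 94.1 in the footprints. The 10 largest rows held 6.24% of the protein-coding signal of the inputs and 4.15% of that of the footprints. In the footprints the largest rows included Slc1a2 (1.80), the astrocyte glutamate transporter, then App (1.90), Ckb (1.87), Aldoa (2.26), Apoe (1.74), Pkm (1.49), Ndrg4 (0.98) and Dync1h1 (1.27). All 8 were called higher than input, though picking rows by their footprint value favours that direction. Slc1a2 had 6788, 7595 and 8056 in the inputs and 23959, 25801 and 28593 in the footprints, with no overlap.

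Rows of the genes for the ribosome's own proteins had few footprints for their input signal. Of 79 ribosomal protein genes, 57 were lower, against 30.7% of all genes, 2 were higher and 20 were not called, with a median of −1.37. Their summed value was 50447 to 53533 in the inputs and 22337 to 26342 in the footprints. Rps6, the small-subunit protein phosphorylated by S6 kinase, had 753, 721 and 658 in the inputs and 186, 116 and 266 in the footprints (−1.98 ± 0.29, adjusted p = 0.001). Fau, which encodes Rps30 fused to a ubiquitin-like protein, had 717, 683 and 777 against 179, 132 and 195 (−2.12 ± 0.18, adjusted p = 1.6e-04). The lowest values with footprints were those of Rps29 (−3.11 ± 0.57, −2.39 without footprint 2), followed by Rpl9. Every footprint of these genes lay below every input, and footprint library 2 was the lowest of the 3 for Rps6, Fau and Rps29. Rpl17 was listed at 0 in the footprints and 174, 121 and 161 in the inputs, so it passed the filter through the inputs alone, and 12 pseudogene rows carry its name. The 2 called higher were Rpl29 and Rpl15 (0.92 ± 0.30, call lost without footprint 1, footprint 3, input 1, input 2 or input 3, adjusted p = 0.085 to 0.11). Rpl28 (1.44 ± 0.62, adjusted p = 0.09, 2.21 with adjusted p = 6.1e-04 without footprint 2) and Rpl12 (1.30 ± 0.96, adjusted p = 0.30, 2.56 with adjusted p = 1.6e-04 without footprint 2) were not called, and their groups overlapped, footprint library 2 being the low one. Higher calls numbered 1 without footprint 1 or any 1 input and 5 without footprint 2. With the named pseudogene rows added to their parent genes, 55 were lower and the median was −0.98. Rps6 then had −0.998, Rpl17 −2.24, Rpl35a −1.57 and Rpl38 −0.51, all still lower, Rpl15 had 0.34 and was no longer called (adjusted p = 0.44), and Rpl28 had 1.79 and was called higher (adjusted p = 0.001). Ribosomal protein genes have many processed pseudogenes, so single members are uncertain, and the size of the list's difference depends on how reads were divided. Pseudogene rows with a predicted-gene name were not added to a parent, and what they would change was not tested.

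Ribosomal protein mRNAs are known as TOP mRNAs, whose first base is a C followed by a run of pyrimidines, a tract through which their translation is regulated. RefSeq start sites (GRCm38.p6) could be matched for 58 of the 79 genes, and the windows below, 15 bases before and 15 from the start, show 6 of the 14 whose start reads as C and 4 pyrimidines. They are shown because starts of 1 kind went with different ratios. Capitals mark the C at the start and the pyrimidines that follow it.
Rps6, chr4:86857353-86857382, minus strand: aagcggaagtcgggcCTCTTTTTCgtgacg
Fau, chr19:6057932-6057961, plus strand: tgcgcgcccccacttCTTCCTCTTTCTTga
Rpl35a, chr16:33056467-33056496, plus strand: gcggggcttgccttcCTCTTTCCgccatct
Rpl38, chr11:114668565-114668594, plus strand: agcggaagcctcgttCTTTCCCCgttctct
Rpl15, chr14:18270972-18271001, minus strand: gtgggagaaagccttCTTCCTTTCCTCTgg
Rpl28, chr7:4792950-4792979, plus strand: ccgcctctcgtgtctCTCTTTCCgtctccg
Rps6, Fau, Rpl35a (−2.92) and Rpl38 (−2.71) were lower in the footprints, Rpl15 was higher and Rpl28 was not called, though all 6 windows open the same way, and for Rpl15 and Rpl28 the calls swapped with the pseudogene rows added. The pattern of C and 4 pyrimidines (each C or T) exactly at the start, on the gene's strand, was found in 24.1% of the matched ribosomal protein genes, in 3.01% of the 10307 tested genes matched to a promoter and in 2.51% of the 32851 promoters in the table. Within the ribosomal protein genes, the median was −1.38 for the 14 with the pattern and −1.54 for the 44 without. Over all matched genes it was −0.30 for 310 with the pattern and −0.27 for 9997 without. Whether these annotated starts are the ones used in brain was not tested.

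Other TOP mRNAs were called about as often as genes in general. Of 20 elongation factor and other TOP genes, 4 were higher (20%, against 18% of all genes) and 6 lower (30%, against 30.7%), with a median of −0.22 that became 0.04 with the deposited scaling. Eef1a1, the elongation factor that delivers aminoacyl-tRNA in most tissues, had 10468, 10662 and 11376 in the inputs and 2716, 6027 and 3832 in the footprints (−1.45 ± 0.26, adjusted p = 0.004). Its paralog of mature neurons and muscle, Eef1a2, had 3784, 3924 and 3706 and 11355, 6433 and 9886 (1.24 ± 0.21, adjusted p = 0.002). The paralogs thus lay on opposite sides, with no overlap of the groups in either, although reads of such similar genes can be divided wrongly. Tpt1, translationally controlled tumour protein, fell by 1.65 on the log2 scale, from 855, 838 and 770.2 to 273, 238 and 275 (adjusted p = 1.2e-04), and with its 6 named pseudogene rows added the difference was −0.49 (adjusted p = 0.019). Hsp90ab1 (1.83 ± 0.19) and Vim (1.91 ± 0.20) were the highest of the list. Eef2, the translocation factor, had −0.55 ± 0.19 (call lost without footprint 3, input 1, input 2 or input 3, adjusted p = 0.055 to 0.14, and with the deposited scaling adjusted p = 0.28), and Pabpc1, the poly(A)-binding protein, 0.47 ± 0.17 (adjusted p = 0.061, 0.010 with the deposited and 0.014 with the median-of-ratios scaling, 0.60 with adjusted p = 0.028 without footprint 1).

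Of 36 initiation factor genes 11 were higher (30.6%) and 10 lower (27.8%), against 18% and 30.7% of all genes (median 0.18, higher calls 7 without input 1 and 6 without input 2 or input 3). Eif3k (1.40 ± 0.15) and Eif2b1 (1.32 ± 0.29) were at the top, and Eif2b5 (−1.40 ± 0.26), the catalytic subunit of the exchange factor eIF2B, and Eif3j1 (−5.12 ± 1.08, −6.47 without footprint 1 and −4.22 without footprint 3), which has a near copy in the genome, at the bottom. Of 20 cytosolic aminoacyl-tRNA synthetase genes, 4 were higher (20%, near the 18% of all genes) and 2 lower (10%, against 30.7%). Vars (1.70 ± 0.38) and Farsa (1.40 ± 0.15) were highest, and Tars (−0.86 ± 0.25, call lost without footprint 3, input 1, input 2 or input 3, adjusted p = 0.055 to 0.081) and Cars (−0.55 ± 0.45, adjusted p = 0.34) lowest. The synthetase median of −0.00 turned to 0.26 and 0.21 with the deposited and the median-of-ratios scaling and to between 0.02 and 0.08 without any 1 footprint or input 1. Lower calls of synthetases were 6 without footprint 2, 1 without footprint 1, and 0 without footprint 3, without any 1 input and with either of those scalings.

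Messages with upstream open reading frames, short frames that divert ribosomes before the main one, had more lower than higher calls, as did all genes. Of 15 such genes 7 were lower (46.7%, against 30.7% of all genes) and 1 was higher (6.67%, against 18%) (median −0.76). Ppp1r15a, the stress-induced phosphatase subunit that reverses eIF2 phosphorylation, had 131, 107 and 148 in the inputs and 17.0, 15.5 and 24.2 in the footprints (−2.72 ± 0.27, adjusted p = 2.8e-04). Its constitutive relative Ppp1r15b had 477, 528 and 517 and 144, 196 and 159 (−1.61 ± 0.16, adjusted p = 3.1e-04). In both, the footprints lay well below the inputs. Atf4, the transcription factor best known for this control, had 271, 241 and 314 and 286, 205 and 445, and its groups overlapped (0.12 ± 0.28, adjusted p = 0.76). Atf5 was the 1 called higher (1.16 ± 0.26), and Slc35a4 was not called (0.82 ± 0.31, adjusted p = 0.062, 0.026 with the deposited scaling, 1.14 with adjusted p = 0.004 without footprint 2). Higher calls were 4 with the deposited or the median-of-ratios scaling and 2 without footprint 2 or footprint 3. Footprints on a leader frame and on the main frame were summed in these gene values and could not be separated.

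Genes read by frameshifting or by selenocysteine insertion had 9 of 22 lower (40.9%) and 3 higher (13.6%), against 30.7% and 18% of all genes (median −0.31, higher calls 5 with the deposited or the median-of-ratios scaling and 1 without input 1 or input 3). Dio2, the selenoenzyme that activates thyroid hormone, had 521, 553 and 639 in the inputs and 58.9, 89.7 and 75.3 in the footprints (−2.93 ± 0.20, adjusted p = 7.6e-05). Gpx4, the selenoperoxidase of membrane lipids, had 1583, 1604 and 1609 and 345, 231 and 352 (−2.39 ± 0.18, adjusted p = 1.0e-04). In both, all 3 footprints lay far below even input values. Selenow (−1.28 ± 0.29) and Oaz1 (−1.31 ± 0.13), the antizyme read through a frameshift, were also lower. Selenos (0.62 ± 0.16, call lost without input 1, input 2 or input 3, adjusted p = 0.059 to 0.063) and Selenoh (0.91 ± 0.25, call lost without footprint 1, input 1 or input 3, adjusted p = 0.051 to 0.08) were higher.

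The proteasome, the protease complex that degrades ubiquitinated proteins, had 16 of 31 subunit genes higher, against 18% of all genes, and none lower (median 0.43). Higher calls were 10 without input 1 or input 3, and lower calls 2 without footprint 2 and 1 without footprint 3. Psmb2, a core beta subunit, had 51.2, 40.9 and 48.5 in the inputs and 356, 539 and 409 in the footprints (3.17 ± 0.21, adjusted p = 7.4e-05). Psmc4, a base ATPase, had 194, 224 and 189.8 and 766, 686 and 797 (1.88 ± 0.14, adjusted p = 9.7e-05). At the bottom, Psmd13 (−0.39 ± 0.14, adjusted p = 0.06, −0.50 with adjusted p = 0.031 without footprint 3) and Psma4 (−0.35 ± 0.20, adjusted p = 0.18, −0.51 with adjusted p = 0.037 without footprint 2) did not pass with all libraries.

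Energy metabolism was read from nuclear and mitochondrial genes. Nuclear-encoded subunits of oxidative phosphorylation had 34 of 77 higher (44.2%) and 11 lower (14.3%), against 18% and 30.7% of all genes (median 0.35, lower calls 17 without footprint 2). Atp5g2 (3.45 ± 0.25), a c subunit of ATP synthase, and Ndufv3 (2.79 ± 0.17) of complex I were the highest. Uqcrh (−1.92 ± 0.44) of complex III was low, and so was cytochrome c, Cycs (−3.98 ± 0.55, −4.63 without footprint 1), a gene with many pseudogenes and uncertain for that reason. The 13 genes encoded in mitochondrial DNA, which are read by mitochondrial ribosomes, gave 4 higher (30.8%) and 5 lower (38.5%) calls. The shares of all genes were 18% and 30.7%, and the median of the list was −0.31, which turned to 0.11 without footprint 2. Here mt-Nd5 had 1721, 1569.6 and 1426 in the inputs and 4364, 2372 and 3578 in the footprints (1.09 ± 0.22), while mt-Co2 had 6888, 5633 and 4864 and 684, 600.4 and 90.3 (−4.10 ± 0.71, −3.16 without footprint 3), with footprint library 3 far below the other two. The highest was mt-Nd2 (1.54 ± 0.35), and mt-Nd3 (−2.96 ± 0.51, −3.62 without footprint 3) and mt-Co3 (−2.92 ± 0.60, −2.16 without footprint 2) were low. The mitochondrial genes shared no direction, and their share of the protein-coding signal was 1.03% to 1.36% in the inputs and 0.481% to 0.758% in the footprints.

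Glycolysis had 12 of 16 genes higher (75%, against 18% of all genes, median 1.30). Hk1, the brain hexokinase, had 897, 835 and 978 in the inputs and 4550.2, 3666 and 3982 in the footprints (2.17 ± 0.13, adjusted p = 4.6e-05). Aldoa, aldolase A, had 3766, 3580.1 and 3492 and 22159, 11954 and 19430.5 (2.26 ± 0.22, adjusted p = 2.7e-04), and pyruvate kinase, Pkm, had 6129, 6236 and 6347 and 17314, 17414 and 17754 (1.49 ± 0.09, adjusted p = 4.7e-05). In these 3 no footprint fell within the input range. Those not higher were Ldha, a lactate dehydrogenase subunit (0.14, not called), and the enzymes Pgk1, with 2554, 2448 and 2425 and 112, 78.6 and 96.3, Pgam1, with 1553, 1582 and 1457 and 225, 315 and 311, and Gapdh, with 3754, 3933 and 3665 and 813, 4474 and 856 (−1.37 ± 0.61, adjusted p = 0.1, −2.18 with adjusted p = 2.2e-05 without footprint 2). Gapdh was low in footprint libraries 1 and 3 and above the inputs in library 2. Pgk1, Pgam1 and Gapdh have processed pseudogenes. Pseudogene rows amounted to 1.51% to 1.56% of the protein-coding total in the inputs and to 3.26% to 3.71% in the footprints, and 8 such rows had a footprint mean over 1000 and an input mean under 10. The row Pgam1-ps2 had a mean of 360.3 in the inputs and 4672 in the footprints. With such named rows added to the parent gene, Pgam1 turned from −2.44 to 1.38 ± 0.10 (adjusted p = 8.9e-05), Pgk1 stayed at −4.70 and 13 of 16 glycolysis genes were higher. Rows that carry a predicted-gene name were not assigned to a parent.

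Chaperone genes had 15 of 34 higher (44.1%) and 4 lower (11.8%), against 18% and 30.7% of all genes (median 0.43). Lower calls were 0 without input 1 or with the deposited scaling, 1 without input 2 or input 3 or with the median-of-ratios scaling, and 2 without footprint 3. Calr, the calcium-binding chaperone of the endoplasmic reticulum, had 853, 751 and 697 in the inputs and 4482, 6034 and 4297 in the footprints (2.67 ± 0.16, adjusted p = 4.9e-05). The small heat shock protein Cryab was also higher (2.21 ± 0.19). P4hb, protein disulfide isomerase, was lower (−0.87 ± 0.23, call lost without footprint 3, input 1 or input 3, adjusted p = 0.058 to 0.062), as was the chaperonin subunit Cct3 (−0.60 ± 0.16, call lost without input 1, input 2 or input 3, adjusted p = 0.055 to 0.075).

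**Figure D3:**
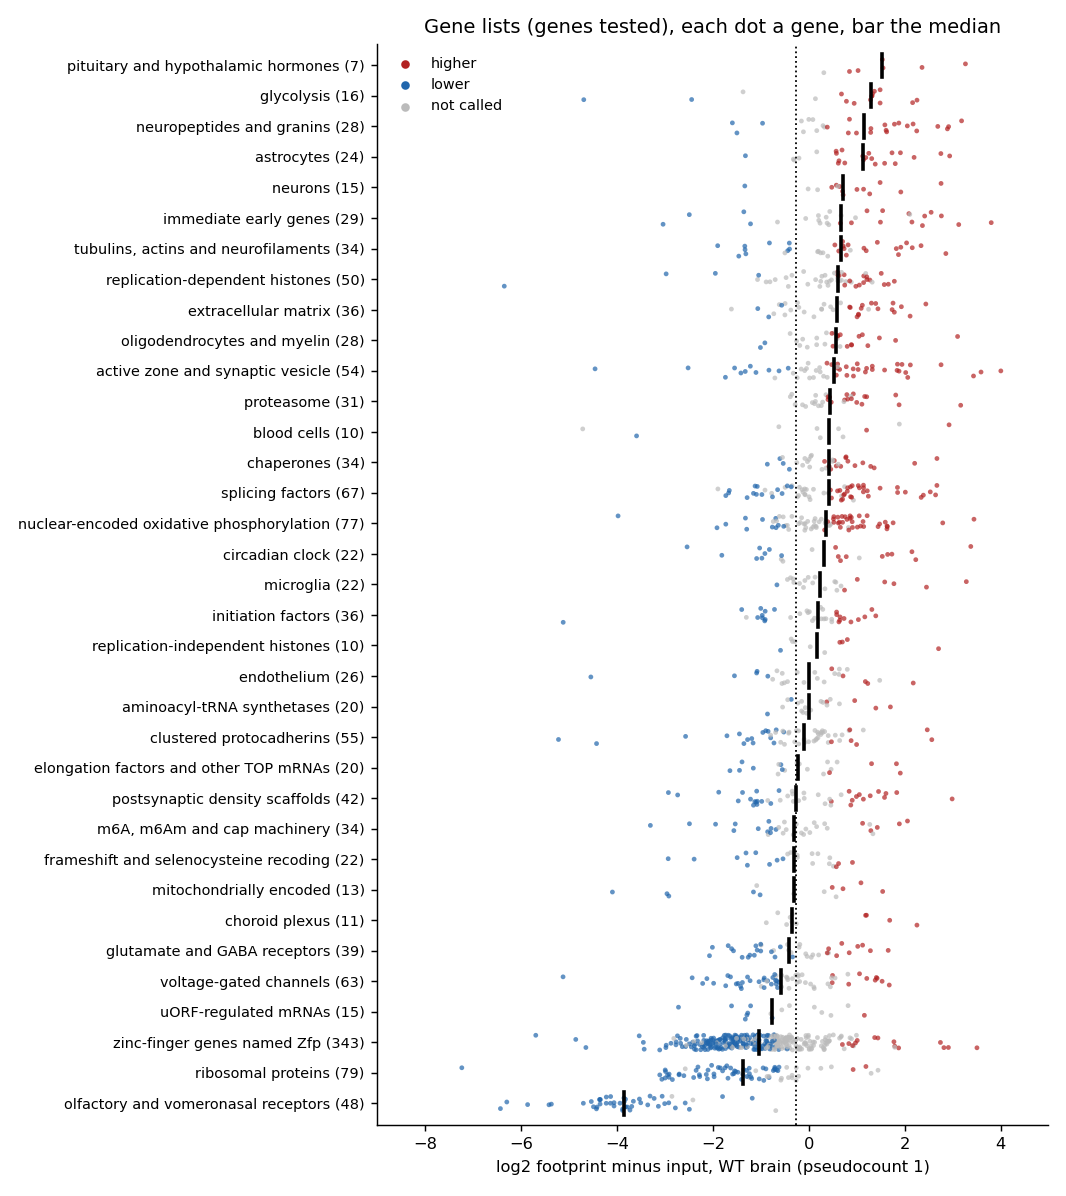
Log2 footprint minus input for each tested gene of the 35 lists, with 1 dot per gene, red for called higher, blue for called lower and grey for not called, and a black bar at the list's median. The dotted line is the median of all genes, −0.27. Hormone, glycolysis and neuropeptide genes have the highest medians (1.53, 1.30 and 1.14), and ribosomal protein genes (−1.37) and chemosensory receptors (−3.85) the lowest.

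At the synapse the 2 sides of the junction differed in their counts. Active zone and synaptic vesicle genes had 28 of 54 higher (51.9%) and 11 lower (20.4%), against 18% and 30.7% of all genes (median 0.53). Postsynaptic density scaffolds had 13 of 42 higher (31.0%) and 15 lower (35.7%, near the 30.7% of all genes), with a median of −0.27, that of all genes. The difference between the lists was not tested. Sncb, beta-synuclein, had 345, 282 and 300.3 in the inputs and 4045, 3569 and 3594 in the footprints (3.59 ± 0.13, adjusted p = 1.1e-05). In contrast, Rims2, a large active zone scaffold, had 3453, 2749.7 and 3624 and 102, 202 and 154 (−4.46 ± 0.26, adjusted p = 4.3e-05), and the vesicle priming factor Unc13c 942, 861 and 895 and 134, 203 and 139.7 (−2.52 ± 0.19, adjusted p = 9.6e-05). The presynaptic list therefore held members far apart on both sides. Snap25, the membrane SNARE partner of Vamp2, had 0.57 ± 0.13 (adjusted p = 0.008).

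On the postsynaptic side, Camk2a, the alpha subunit of the calcium/calmodulin kinase and a known dendritic mRNA, had 1784, 1712 and 1854 in the inputs and 14509, 13453 and 14591 in the footprints, 7.95-fold (2.99 ± 0.10, adjusted p = 1.1e-05). Nrgn, the calmodulin-binding neurogranin, had 1101, 1171 and 1054 and 3929, 3958 and 3970.4 (1.83 ± 0.10, adjusted p = 3.7e-05). Ddn, dendrin, whose mRNA is also found in dendrites, went the other way, with 2466, 2702 and 2841 and 409, 381 and 408 (−2.74 ± 0.11, adjusted p = 1.8e-05). These 3 genes had narrow groups and differed in direction. Ppp1r9b, the actin-binding spinophilin, was the lowest of the list (−2.93 ± 0.17). Arc, the activity-regulated spine protein, had 457, 513 and 659.6 and 908, 588 and 1182, which overlapped (0.68 ± 0.27, adjusted p = 0.074, 0.028 with the deposited scaling, 0.95 with adjusted p = 0.007 without footprint 2).

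**Figure D4:**
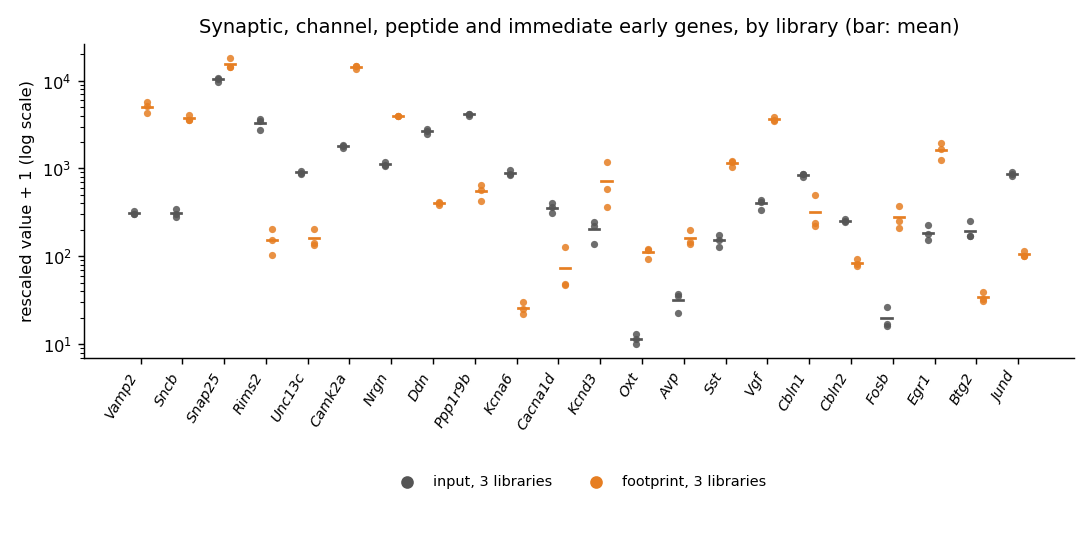
Rescaled values plus 1 on a log axis for synaptic, channel, peptide and immediate early genes, with 1 dot per library, inputs in grey and footprints in orange, and a bar at each mean. Vamp2, Sncb, Camk2a, Sst, Vgf, Fosb and Egr1 have all footprints above all inputs, and Rims2, Ddn, Ppp1r9b, Kcna6, Cbln1, Btg2 and Jund all below.

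Receptor and channel genes were called lower somewhat more often than genes in general. Glutamate and GABA receptor subunits had 17 of 39 lower (43.6%, against 30.7% of all genes) and 9 higher (23.1%, against 18%) (median −0.42, higher calls 5 without input 1 and 4 without input 2). Grik1 (−2.07 ± 0.31), a kainate receptor subunit, and Gabra5 (−2.01 ± 0.30) were the lowest, and the presynaptic glutamate receptor Grm2 (1.66 ± 0.20) and Gabra2 (1.29 ± 0.34, call lost without input 1 or input 2, adjusted p = 0.056 to 0.061) the highest. Voltage-gated channel genes had 28 of 63 lower (44.4%) and 10 higher (15.9%) (median −0.57, higher calls 6 without input 3). Kcna6, an intronless potassium channel gene, had 850.0, 870.1 and 949 in the inputs and 20.9, 24.1 and 29.0 in the footprints, 35.0-fold lower (−5.13 ± 0.18, adjusted p = 1.1e-05). All 3 footprint values were a small part of the input values. The calcium channel Cacna1d followed (−2.43 ± 0.39), while Kcnd3 (1.68 ± 0.43, call lost without input 3, adjusted p = 0.057) and the AMPA receptor regulator Cacng8 (1.53 ± 0.13) were higher.

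Cytoskeletal genes had 17 of 34 higher (50%) and 9 lower (26.5%), against 18% and 30.7% of all genes (median 0.66, lower calls 5 with the deposited scaling). Pfn1, the actin-binding profilin, had 92.8, 80.5 and 90.4 in the inputs and 707, 594 and 634 in the footprints (2.86 ± 0.15, adjusted p = 3.4e-05). The tubulins went both ways, with Tubb4a at 1534, 1516 and 1651 and 9822, 5729 and 8901 (2.34 ± 0.20) and Tuba1a at 7657, 7589.8 and 7776 and 3355, 2625 and 3225 (−1.33 ± 0.12). Tubulin genes are similar in sequence, so reads may be divided between them. The spectrin Sptbn1 (−1.46 ± 0.11) was among the lowest. Actb, beta-actin, had −0.44 ± 0.11 (call lost without input 2, adjusted p = 0.054, and 0.22 with the deposited scaling). The clustered protocadherins, adhesion genes of which the alpha and gamma clusters share their last exons, had 16 of 55 lower (29.1%, near the 30.7% of all genes) and 6 higher (10.9%, against 18%). Their median of −0.10 turned to 0.16 and 0.11 with the deposited and the median-of-ratios scaling. Lower calls there were 9 with either scaling and 7, 5 and 8 without inputs 1, 2 and 3, and higher calls 11 with the deposited scaling.

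Genes of secreted neuronal products had more higher than lower calls. Neuropeptide and granin genes had 18 of 28 higher (64.3%) and 3 lower (10.7%), against 18% and 30.7% of all genes (median 1.14). Vgf, a granin-like precursor, had 335, 440.2 and 419 in the inputs and 3544, 3847 and 3450.1 in the footprints (3.19 ± 0.14, adjusted p = 2.0e-05). Somatostatin, Sst, had 172, 152 and 128 and 1216, 1027 and 1174 (2.92 ± 0.16, adjusted p = 3.7e-05). Both had tight groups far apart. The synapse organisers Cbln1, with 855, 859 and 799 and 236, 496 and 219.7 (−1.50 ± 0.30), and Cbln2 (−1.59 ± 0.17) were lower. Of 15 hypothalamic and pituitary hormone genes 7 passed the filter, and 6 of those were higher (85.7%, against 18% of all genes). Oxytocin, Oxt, had 11.9, 9.12 and 10.4 and 118, 118 and 92.4 (3.27 ± 0.26, adjusted p = 1.2e-04), and vasopressin, Avp, 34.5, 35.9 and 21.6 and 144, 199.6 and 138 (2.36 ± 0.28, adjusted p = 6.1e-04). The others were Pmch (1.03 ± 0.17), Hcrt (1.53 ± 0.33), Pomc (1.55 ± 0.45, call lost without input 1, input 2 or input 3, adjusted p = 0.07 to 0.082) and Crh (0.85 ± 0.30, call lost without footprint 2, footprint 3, input 1, input 2 or input 3, adjusted p = 0.073 to 0.16), and Trh was not called (0.31 ± 0.21, adjusted p = 0.24). Pomc passed the filter through its footprints alone. Extracellular matrix genes had 16 of 36 higher (44.4%) and 3 lower (8.33%), with a median of 0.59. Lower calls there were 1 without footprint 1 and 0 without input 1 or input 3 and with the deposited or the median-of-ratios scaling. The brain proteoglycan Bcan (2.11 ± 0.20) and its link protein Hapln4 (2.44 ± 0.33) were highest. Lama2 (−1.61 ± 0.59, adjusted p = 0.057, −2.31 with adjusted p = 0.004 without footprint 3) and Col5a1 (−1.06 ± 0.35, call lost without footprint 1, footprint 2, input 1 or input 3, adjusted p = 0.066 to 0.15) were lowest.

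Marker genes of brain cell types were present in all 6 libraries. In whole tissue, fewer cells of a type and less RNA per cell cannot be told apart. The neuron markers summed to 41840 to 45277 in the inputs and 69154 to 72707 in the footprints. Of these 15, 11 were higher (73.3%) and 1 lower (6.67%), against 18% and 30.7% of all genes (median 0.71). Syn1, the vesicle-tethering synapsin, had 483, 422 and 567 and 3083, 3544 and 3294 (2.76 ± 0.14), and the neurofilament Nefm 1.92 ± 0.14. The tubulin-binding stathmin Stmn2 was the 1 lower, with 2556, 3062 and 2569.8 and 997, 1264 and 992 (−1.34 ± 0.14), and Slc17a7, the vesicular glutamate transporter, differed least, with 2467, 2527 and 2673 and 2573, 2607 and 2412. Astrocyte markers had 19 of 24 higher (79.2%) and 1 lower (4.17%), with a median of 1.13 (lower calls 2 without footprint 2). Their summed values were 56170 to 58715 in the inputs and 120776 to 133156 in the footprints. Atp1b2 (2.94 ± 0.30), a sodium pump subunit, and the neurotensin receptor Ntsr2 (2.76 ± 0.18) led. S100b, a calcium-binding protein, was the 1 lower, with 1174, 1098 and 1173 and 366, 661 and 397 (−1.32 ± 0.23), and Slco1c1 was not called (−0.32 ± 0.16, adjusted p = 0.14).

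Oligodendrocyte and myelin markers had 14 of 28 higher (50%) and 2 lower (7.14%), against 18% and 30.7% of all genes (median 0.56). Higher calls there were 8 without input 2 and lower calls 4 without footprint 2. Sox10, the lineage's transcription factor, had 63.9, 69.1 and 42.7 in the inputs and 521, 490.1 and 493 in the footprints (3.10 ± 0.22, adjusted p = 7.7e-05), and Myrf, which drives myelin genes, 1.81 ± 0.22. The 2 lower were Tmem88b (−1.01 ± 0.14) and Pllp (−0.92 ± 0.21). Mbp, a main protein of compact myelin, had 7405, 6203 and 6338 and 12484, 6374 and 11009.6 (0.53 ± 0.25, adjusted p = 0.11, 0.037 with the deposited scaling, 0.82 with adjusted p = 9.1e-04 without footprint 2). Mbp was at the input level in footprint library 2 and above it in the others. Microglia markers had 6 of 22 higher (27.3%, against 18% of all genes) and 1 lower (4.55%, against 30.7%), with a median of 0.23. Laptm5 (3.29 ± 0.32) and Cd68 (2.45 ± 0.47), lysosomal proteins, were highest. Cd68 had low inputs of 13.7, 5.14 and 4.04, so it needed its footprints of 51.0, 37.4 and 36.7 to pass the filter. Tyrobp was not called (−0.45 ± 0.34, adjusted p = 0.31), and P2ry12 was the 1 lower (−0.67 ± 0.23, call lost without footprint 1, footprint 3, input 1, input 2 or input 3, adjusted p = 0.071 to 0.15, adjusted p = 0.17 with the deposited scaling and 0.13 with the median-of-ratios scaling).

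Endothelial markers gave 5 higher and 5 lower calls of 26 (19.2% each, against 18% and 30.7% of all genes, median 0.01, which turned to −0.13 without footprint 3 and −0.17 without input 3). Higher calls were 3 without footprint 1 and 2 without footprint 3, input 2 or input 3, and lower calls 3 without footprint 3 or input 1 and with the deposited or the median-of-ratios scaling. Ly6e (2.18 ± 0.16) was the highest called and Eng was not called (1.48 ± 0.57, adjusted p = 0.068, 0.040 with the deposited scaling, 1.87 with adjusted p = 0.034 without footprint 2 and 2.07 with adjusted p = 0.015 without input 1). Abcb1a, the drug efflux pump of the blood-brain barrier, had 535, 489.6 and 279 and 18.5, 17.0 and 15.4 (−4.55 ± 0.29, adjusted p = 5.6e-05), and the phosphatase Ptprb −1.55 ± 0.20. Choroid plexus markers had 4 of 11 higher (36.4%, against 18% of all genes) and none lower (3 lower without footprint 2), with a median of −0.34. Transthyretin, Ttr, had 2872, 2713 and 2834 and 6869, 5986 and 6557 (1.20 ± 0.10, adjusted p = 1.6e-04). Sostdc1 (2.26 ± 0.42) and Kcnj13 (1.69 ± 0.40) were also higher. Sostdc1 had low inputs of 11.7, 4.25 and 5.16, so it needed its footprints of 29.6, 39.3 and 35.2 to pass the filter. Prlr (−0.89 ± 0.33, adjusted p = 0.057, −1.01 with adjusted p = 0.046 without footprint 2) and Clic6 (−0.65 ± 0.39, adjusted p = 0.21, −1.09 with adjusted p = 0.009 without footprint 2) were not called. Blood cell genes summed to 3990 to 8516 in the inputs and 5158 to 14208 in the footprints. Of these 10, 2 were higher (20%, near the 18% of all genes) and 1 lower (10%, against 30.7%, 2 lower without footprint 1). Beta-globin, Hbb-bs, had 1831, 2968 and 1144 and 1773, 4466 and 1122 (0.17 ± 0.53, adjusted p = 0.81). Input and footprint libraries numbered 2 were the highest of their kinds. The near-identical Hba-a1 (2.93 ± 0.71, 3.68 without footprint 3) and Hba-a2 (−4.72 ± 2.39, adjusted p = 0.14, −1.53 with adjusted p = 0.023 without footprint 1) lay apart and are uncertain, Hbb-bt was not called (1.89 ± 0.74, adjusted p = 0.07, 0.0455 with the deposited and 0.0495 with the median-of-ratios scaling, both under the threshold, 2.50 with adjusted p = 0.031 without footprint 3 and 2.50 with adjusted p = 0.035 without input 2), and the haem enzyme Alas2 was lower (−3.59 ± 0.53).

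Genes of transient transcription also ran to both sides. Immediate early genes, which neurons switch on within minutes of activity, had 13 of 29 higher (44.8%) and 4 lower (13.8%). The shares of all genes were 18% and 30.7%, and the median of the list was 0.68. Fosb had 25.2, 15.2 and 16.1 in the inputs and 253, 209 and 369 in the footprints (3.81 ± 0.31, adjusted p = 1.3e-04), and Egr1 176, 153 and 223 and 1675, 1247 and 1952 (3.13 ± 0.22, adjusted p = 7.7e-05). Both transcription factors had all footprints far above all inputs. Jund, an intronless AP-1 gene, had 857, 914 and 828 and 98.6, 115 and 100.4 (−3.04 ± 0.14, adjusted p = 2.2e-05), and the antiproliferative Btg2 −2.49 ± 0.25. Circadian clock genes had 10 of 22 higher (45.5%) and 8 lower (36.4%, against 30.7% of all genes), with a median of 0.31. Lower calls there were 5 without input 1 or input 3 and with the deposited scaling. The repressor Nr1d1 had 88.7, 77.3 and 88.6 and 1205, 528 and 1112 (3.38 ± 0.31), and the output factor Hlf 2.23 ± 0.14. Per3 (−2.54 ± 0.18) and Clock (−1.81 ± 0.19) were lowest.

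Nuclear and RNA-processing genes differed by group. Genes named Zfp, most of which encode zinc-finger transcription factors, had 182 of 343 tested members lower (53.1%) and 14 higher (4.08%). The shares of all genes were 30.7% and 18%. The median was −1.05, and 391 such genes are in the table. Zfp992 was listed at 0 in all 3 footprints and 36.9, 72.9 and 48.7 in the inputs, and Zfp781 had −4.86 ± 0.82 (−5.50 without footprint 3). Zfp385c (3.51 ± 0.40) and Zfp580 (2.91 ± 0.43) were highest, both with low values, and Zfp385c had 4.19, 8.75 and 4.09 in the inputs and 76.0, 50.7 and 94.3 in the footprints. Of the 343, 11, among them Zfp992 and Zfp781, passed the filter through inputs alone, and 1, Zfp385c, through footprints alone. Splicing factors had 30 of 67 higher (44.8%) and 14 lower (20.9%), with a median of 0.42 (lower calls 9 with the deposited scaling). Hnrnpd had 229, 194 and 251 and 1485, 1411 and 1391 (2.67 ± 0.14), Sf1, which binds the branch point, 2.65 ± 0.24, and U2af1, of the 3′ splice site, −1.73 ± 0.20. Snrpg was not called (−1.90 ± 1.48, adjusted p = 0.32, −3.44 with adjusted p = 0.049 without footprint 3).

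Replication-dependent histone genes, whose mRNAs end in a stem-loop and lack a poly(A) tail, had 18 of 50 higher (36%) and 4 lower (8%). The shares of all genes were 18% and 30.7%, and the median of the list was 0.60. Higher calls were 11 without input 3, and lower calls 2 without input 1 and 1 without input 2 or input 3. Hist1h4b (1.78 ± 0.31) and Hist1h3h (1.66 ± 0.24) were highest and Hist1h2ad was low (−2.98 ± 0.88, call lost without footprint 3, input 1, input 2 or input 3, adjusted p = 0.065 to 0.086, −3.92 without footprint 1 and −2.05 without footprint 2). These genes are near copies of one another, so single members are uncertain. Replication-independent histones had 4 of 10 higher (40%) and 1 lower (10%), with a median of 0.18. Higher calls were 2 without footprint 3 or any 1 input, and lower calls 2 without footprint 2 and 0 without input 1 and with the deposited or the median-of-ratios scaling. H1fx had 30.9, 31.0 and 31.5 and 202, 220.2 and 204 (2.71 ± 0.18), and the linker histone H1f0 was the 1 lower (−0.59 ± 0.14, call lost without input 1, adjusted p = 0.054).

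Among genes of m6A, m6Am and cap metabolism, 11 of 34 were lower (32.4%) and 5 higher (14.7%), near the 30.7% and 18% of all genes (median −0.31). Pcif1 itself had 281, 349 and 424 in the inputs and 217, 215 and 213 in the footprints. The groups did not overlap, and the difference was −0.68 ± 0.18 (adjusted p = 0.018, call lost without input 2 or input 3, adjusted p = 0.063 to 0.074, and adjusted p = 0.099 with the deposited and 0.070 with the median-of-ratios scaling). The cap-binding protein Ncbp3 (−3.31 ± 0.29) and the decapping enzyme Dcp2 (−2.49 ± 0.60, −3.19 without footprint 2 and −1.84 without footprint 3) were lowest, and Mettl14 (1.89 ± 0.27), the partner subunit of the m6A writer, and its associated factor Cbll1 (2.06 ± 0.36) highest.

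Chemosensory receptor mRNAs and non-coding RNAs were read on the same scale. Olfactory and vomeronasal receptor genes are not known as brain genes, and 48 of 1413 passed the filter, 40 of them through the inputs alone. Those 40 had to differ downward, so most of the 45 lower calls follow from how the genes passed. Vmn2r53 had 323, 277 and 305 in the inputs and 6.56, 0 and 6.43 in the footprints. Olfr90 ran from 145, 103 and 118 to 1.79, 0 and 0. Vmn2r60 (−1.18) and Olfr287 (−0.69, not called) were the least low. Without any 1 input 9 of these genes were tested and 4 or 5 were lower. Of 20 listed non-coding RNAs outside the protein-coding rows, 17 had all footprints below all inputs, with a median of −3.75 over the 20. The same held for 37.1% of tested protein-coding genes. It also held for 206 of 255 lincRNA rows, 260 of 284 snoRNA rows and 163 of 176 snRNA rows. Malat1, a nuclear RNA, had 48347, 51752 and 42330.1 in the inputs and 740.4, 445 and 756 in the footprints. Rn7sk, the RNA of the 7SK particle, had 261116, 275231 and 258135 and 271, 139.8 and 206. Meg3, an imprinted RNA, was the least low of these 3, with 2685, 2539 and 2372 and 1168, 804 and 1155. The exceptions were Rmrp, an RNA enzyme component, with 2247, 1043 and 3599 and 5349, 4147 and 5753, and Pantr1 and Epb41l4aos, whose groups overlapped. Over whole classes the median was −2.81 for 255 lincRNA rows, −5.09 for 284 snoRNA rows and −5.23 for 176 snRNA rows, but 1.62 for 613 processed pseudogene rows. Snhg11, a small nucleolar RNA host gene that the table files as protein-coding, had 4417, 3227 and 3797 and 593, 437 and 186 (−3.37 ± 0.40).

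The first base of the mRNA is where PCIF1 acts when it is an adenosine. Among 10307 tested genes matched to a RefSeq start, the median was −0.26 for 2454 genes with A as the annotated first base, −0.23 for 1294 with C, −0.30 for 4246 with G and −0.29 for 757 with T, and 1556 genes had more than 1 first base. The classes differed by less than 0.1 in the median. The motif TATAA, on the gene's strand 16 to 40 bases before the start, was found in 2.51% of tested genes and in 3.52% of all promoters, and its 259 genes had a median of −0.05, against −0.28 for 10048 without it. These are descriptions over genes, which are not replicates, and a motif match is not a site.

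The KO libraries gave the same comparison in other animals, with 51.1% of 13234 genes called, 19.5% higher and 31.5% lower. Of 12961 genes tested in both genotypes, 2348 were higher in WT, and 1819 of these were also higher in KO, which is 77.5% of the WT calls and 71.2% of the KO calls. Lower calls were 4035 in WT, of which 3193 were also lower in KO, 79.1% and 77.8%. Opposite calls numbered 3 and 2. Of the 12 highest named genes all were higher in KO, and of the 11 of the lowest given above 9 were lower, Hist2h2aa1 was not called and the second Zc3h11a row was not tested. The ribosomal protein median was −1.37 in both, and 28 of the 35 list medians differed by under 0.2. The choroid plexus, circadian clock and synthetase medians changed sign, from −0.34 to 0.24, from 0.31 to −0.04 and from −0.00 to 0.14. KO input library 2 was shallower than the others, with 5528739 estimated reads against 15949838 and 16206026.

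The ratio itself differed between genotypes, by a limma interaction over 12 libraries, in 3 genes that were higher in KO (0.0216% of 13865 tested) and 1 that was lower (0.00721%), 0.0288% together, and 1332 genes, 9.61%, had an unadjusted p under 0.05. Values here are on the scale of the 12 libraries. Abcb1a had 535, 489 and 279 in WT inputs and 18.5, 17.0 and 15.4 in WT footprints, against 936, 642 and 384 and 289, 387 and 668 in KO (4.01 ± 0.52, adjusted p = 0.02). The KO footprints were far above the WT footprints, and the inputs overlapped. Gm10260 was at 0 in WT footprints and 149, 172 and 188 in KO, with inputs of 26.6, 26.2 and 19.2 and 250.4, 217 and 301. Gm21985 was at 0 in KO inputs, with 28.9, 40.3 and 61.0 in WT inputs. Gm4737 was at 0 in KO footprints, with 27.9, 51.7 and 40.8 in WT footprints. In the 3 predicted genes 1 group is at 0, so the size of the difference depends on the pseudocount and no fold is given. The count rested on WT footprint library 2, which lay nearer to the KO footprints as described above: without it 485 genes were higher and 327 lower. With a pseudocount of 10 the counts were 0 and 1, and with no filter 9 and 5.

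**Figure D5:**
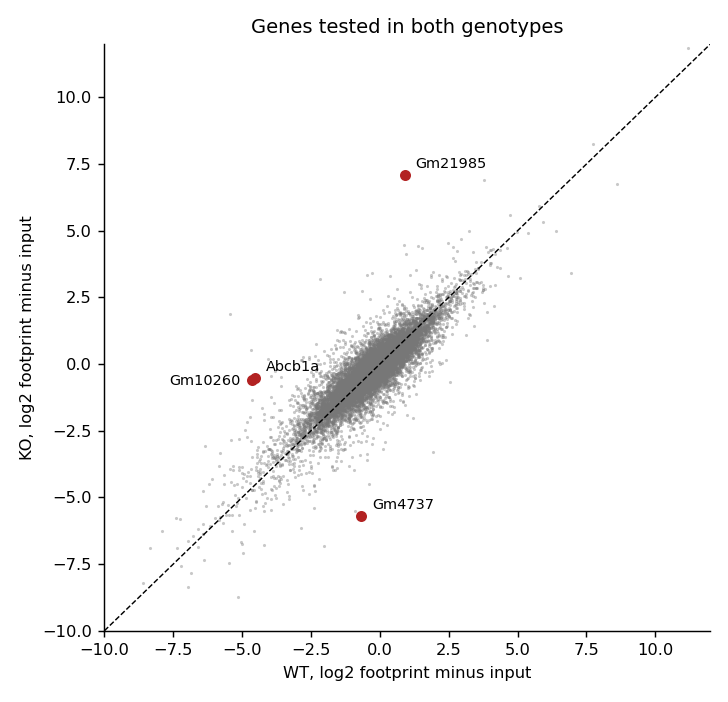
Log2 footprint minus input in WT (horizontal) and in KO (vertical) for genes tested in both genotypes, with 1 dot per gene and the dashed line at equal values. Most genes lie along the line, and the 4 red points, Abcb1a, Gm10260, Gm21985 and Gm4737, are those whose ratio was called different.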

How the data were processed

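Ribosome footprint and input RNA libraries of WT and Pcif1 KO mouse brain (3 of each kind per genotype) were used, and the testes m6Am-Exo-Seq table and the tissue RNA-seq samples were not used here. The deposited brain table gives 1 normalized signal value per gene and library, made by the authors. Salmon 0.12.0, STAR, DESeq, DESeq2 1.25.10 and R 3.6.2 are named per the submitters' processing notes, with no order. Genome build: not given in the sources used here. The annotation and the strand setting are likewise not stated. The most frequent value above 0 in a library was taken as the value of 1 read. Between 7.72% and 8.51% of values in WT footprints and 14.4% and 15.1% in WT inputs were whole multiples (within 0.01) of it, so counts were not recovered and no count test was run. The estimated reads rest on that value, and they limit the precision of low values.

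Protein-coding rows were rescaled to 1 common total, kept at a value of at least 10 in at least 3 of the libraries fitted, and tested on log2(value + 1) with limma 3.58.1 (trend) in R 4.3.3 over the 6 WT libraries, 6 KO libraries or, for the interaction, 12. The fit was tested on simulated data. Libraries were numbered in accession order only, and the 3 of each kind were taken to come from separate mice. Of rows with a repeated symbol, the one on an assembled chromosome stands for a list member. RefSeq promoters (GRCm38.p6) gave start sites. Protein and mRNA lengths were not available, so levels are not ranked per residue and ratios compared between genes are not corrected for length.

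Genes were named by a rule: the 12 highest and 12 lowest called genes with a mean of at least 100, no overlap and no predicted name, the 2 highest and 2 lowest of each of 35 lists, the 10 highest footprint rows and a fixed set. A few genes that the rule names are not reported here. Members, lists and genes were chosen with earlier results of these data known. Alternatives were other scalings, pseudocounts, filters, no trend, all 12 libraries, leaving out each library and, added after seeing the data, summing named pseudogene rows.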

Additional observations from a re-analysis of the deposited data

Results flagged for a closer look

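The footprint-to-input ratio differed between KO and WT in 4 genes, by limma's interaction over 12 libraries, with Benjamini-Hochberg adjusted p. The difference (KO minus WT, log2) was 4.01 for Abcb1a, in which all 3 KO footprints exceeded all 3 WT footprints. The other 3 each had a group listed at 0, so no size is given: Gm10260 in the WT footprints (adjusted p = 8.9e-04), Gm21985 in the KO inputs (adjusted p = 0.00116) and Gm4737 in the KO footprints (adjusted p = 8.9e-04). With a pseudocount of 10 there were 0 higher and 1 lower.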

How the results depend on the processing

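No paired analysis was possible because the labels carry no replicate numbers and do not say which input and footprint came from one mouse. The counts of genes called higher and lower in WT footprints ran from 1764 to 2766 and from 2759 to 4808 with 1 library left out, the highest without footprint library 2. Genes with a higher ratio in KO than in WT ran from 2 to 485 and those with a lower ratio from 1 to 327 with 1 library left out. The 485 and 327 came without WT footprint library 2, and the cause was not tested. Without a filter those counts were 9 and 5, and with a pseudocount of 10 there were 0 higher and 1 lower. Pgam1 turned to 1.38 with its pseudogene rows added. Slc17a7 turned to 0.25 and 0.20 with the deposited and the median-of-ratios scaling and ran from −0.039 to 0.020 with 1 library left out. Uncalled Atf4 ran from −0.18 to 0.38 and Hbb-bs from −0.38 to 0.61. Of 164 named genes called, 18 lost the call without at least 1 library, and 1, Pgam1, changed sign under an alternative, the added pseudogene rows. Filters, pooling, trend and pseudogene choices moved 19 list counts or medians in 12 lists by more than 1.5 times or across 0. Levels near 10 rest on few reads.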
